A study of Saccharomyces cerevisiae with 14 samples.

Results

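Among the sites at which the RNA endonuclease MazF was used to cut yeast mRNA during meiosis, 88 had high and nearly equal mean cleavage in 3 windows between 1 and 8 h. They are 88 of the 1184 distinct sites in the table, and 88 of the 395 sites with a value at every hour of the rule that chose them. That rule took the mean cleavage efficiency at 1 and 2 h, at 3.5, 4 and 5 h, and at 7 and 8 h. A site was kept when all 3 means were 0.85 or more and differed by less than 0.04. The unit is cleavage efficiency, a fraction of 1 at full cutting. The sites were thus selected on their values at these 7 hours, which are given as a description. The libraries at 0, 3 and 6 h were not used by the rule, but they belong to the same course and the same sites. When sites with a value of exactly 1 at any of the 7 hours were left out, 47 sites met the rule.

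All libraries were of polyA RNA from diploid yeast of the strain SK1, followed for 8 h after meiosis was induced. The cells were MAT a/alpha and homozygous for lys2, for ho::LYS2 and for ndt80::LEU2. The ndt80 gene encodes the transcription factor needed to leave pachytene, and every library here, the early ones included, comes from cells without it. There was 1 library at each of 0, 1, 2, 3, 3.5, 4, 5, 6, 7 and 8 h, with no replicate at any hour, and whether they came from a single culture is not stated in the labels. A further 4 samples at 8 h, 2 of them with the ime4::HIS3 disruption of the methyltransferase gene, were not analysed here, because 4 columns of values carry names that match no label. The number of sites with a value ranged from 299 at 0 h to 1171 at 3.5 h. How many reads stand behind a value is unknown, and no interval for counting error is given.

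N6-methyladenosine (m6A) is a methyl mark placed on adenosines of mRNA. In budding yeast it is laid down during meiosis by a complex around the methyltransferase Ime4, preferably at an A that follows a G and precedes a C. MazF cuts RNA before the letters ACA when the first A is unmethylated, so a methylated ACA is cut less. Sites that are cut at a high level throughout are the counterpart of the sites at which cleavage is lost in meiosis.

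The sequence around the sites was read from the yeast reference genome R64 of RefSeq, by the position in the gene that the table gives. Positions in the table turned out to count from 150 bases before the start codon. Taking 150 from the listed position on the plus strand, and 149 on the minus strand, put 1041 of 1177 rows (88.4%) on an ACA. The highest share at any other of 2401 offsets tried was 3.90% on the plus and 4.25% on the minus strand. In this way 81 of the 88 sites could be placed, and 7 could not, namely QRI1, REG1, GLC7, VIR1, OPT2 and the 2 copies of the 25S ribosomal RNA. R64 is the sequence of the strain S288C, and SK1 may differ from it. The windows printed here hold the ACA with 10 bases on either side, with T for U. Capitals mark the ACA and the 2 bases before it, and a T where it stands 2 bases after the ACA.

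The steadiest placed sites, by the range over all libraries, show the usual letters and an exception in CIT1.
ACO1 at 1687 (R64 chr12:735999-736021, minus strand): aaattaaaGGACAaggatggtaa
CIT1 at 1007 (R64 chr14:630192-630214, minus strand): cccatactACACAtTtagtgggt
TPM1 at 154 (R64 chr14:479149-479171, minus strand): gcaacaatGGACAaaatcagaga
RPT4 at 455 (R64 chr15:813391-813413, minus strand): aaagtattGGACAaTtgattggc
Sites in genes of meiosis and of the mark itself are shown because methylation is a feature of this stage.
PHO92 at 228 (R64 chr4:1224304-1224326, minus strand): aaatgacaGGACAaTtgaagact
RED1 at 2605 (R64 chr12:672784-672806, plus strand): tgctattaGGACAagaaaatttg
SPO22 at 1796 (R64 chr9:224296-224318, minus strand): aagtagatAGACAaTctcctctg
In NCE103 and HFM1 the stable site, given first, has another listed site 6 and 7 bases away, and in PEP4 one 290 bases away that was mostly cut more.
NCE103 at 870 (R64 chr14:560523-560545, plus strand): aaagacatTTACAaagtagacgg
NCE103 at 864 (R64 chr14:560517-560539, plus strand): aaatagaaAGACAtTtacaaagt
HFM1 at 3881 (R64 chr7:27893-27915, minus strand): atggccggGAACAaTagacatta
HFM1 at 3888 (R64 chr7:27886-27908, minus strand): ggaacaatAGACAtTactgatat
PEP4 at 1434 (R64 chr16:259635-259657, minus strand): taagtagaTAACAaTaaaaaaaa
PEP4 at 1144 (R64 chr16:259925-259947, minus strand): aacaccagAGACAaTctacctga

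Most stable sites carried the letters that the methyltransferase prefers. Of the 81 placed sites, 73 (90.1%) had an A or G followed by GACA, against 239 of 271 (88.2%) of the other placed sites that the rule could judge. Among every ACA in the coding sequences of R64 the share was 11.0%, so the table as a whole was rich in this motif. A T lay 2 bases after the ACA in 54 of the 81 stable sites (66.7%) and in 206 of the 271 others (76.0%), against 26.6% of every coding ACA. The base right after the ACA was an A in 50 of the 81 stable sites (61.7%) and in 95 of the 271 others (35.1%), against 41.1% of every coding ACA. Read the other way, the rule kept 50 of 145 judged sites with an A at this place, 10 of 47 with a C, 1 of 21 with a G and 20 of 139 with a T. At 6 h, an hour the rule did not use, the median cleavage of these judged sites was 0.884 with an A, 0.886 with a C, 0.771 with a G and 0.819 with a T. At 3 h these medians were 0.906, 0.875, 0.829 and 0.860, and at 0 h 0.943, 0.907, 0.911 and 0.924, so the order of the bases below A differed between the hours, and at 6 h C stood level with A. Of the 79 placed sites that were as high but less even, described further on, 36 (45.6%) had an A at this place. These shares are descriptions and were not tested. Only the strand with the letters of the RNA was searched, and the motif of an A or G before GACA contains the ACA itself.

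The 8 placed sites without the motif were in CIT1, CPR1, GPN2, HFM1, HMG2, NCE103, PEP4 and YIG1. Their median at 6 h was 0.913, against 0.916 for the 73 sites with it. Of these 8 sites, 5 lay in a gene with another site in the table, against 14 of the 73 with the motif.

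By the R64 annotation 73 of the 81 placed sites lay in coding sequence, 6 after the stop codon and 2 before the start codon, those of COR1 and MGM101. Of the other 271 judged and placed sites 232 were coding, 37 after the stop codon and 2 before the start codon. Within coding sequence the first A was the middle base of a GAC codon, which encodes aspartate, at 43 of 73 stable sites (58.9%) and at 133 of 232 others (57.3%). The stable coding sites lay at a median of 71.0% of the way through the gene, and the others at 71.1%.

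The sites lay in 88 listed genes, and no gene held more than 1 of them. The ribosomal sites RDN25-1 and RDN25-2 are copies of the same rRNA gene, whose reads the processing may have split, and stand for a single site. Over all libraries with a value, the mean per site ran from 0.85 in CSC1 to 0.992 in GPN2, with a median of 0.928. The range between the lowest and the highest library of a site had a median of 0.0844 and reached 0.308. Every listed value was 0.85 or more at 59 of the 88 sites, 0.90 or more at 35 and 0.95 or more at 13. The map of all sites by library runs by the mean, with the highest sites at the top and single low libraries scattered near the foot.

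**Figure D1:**
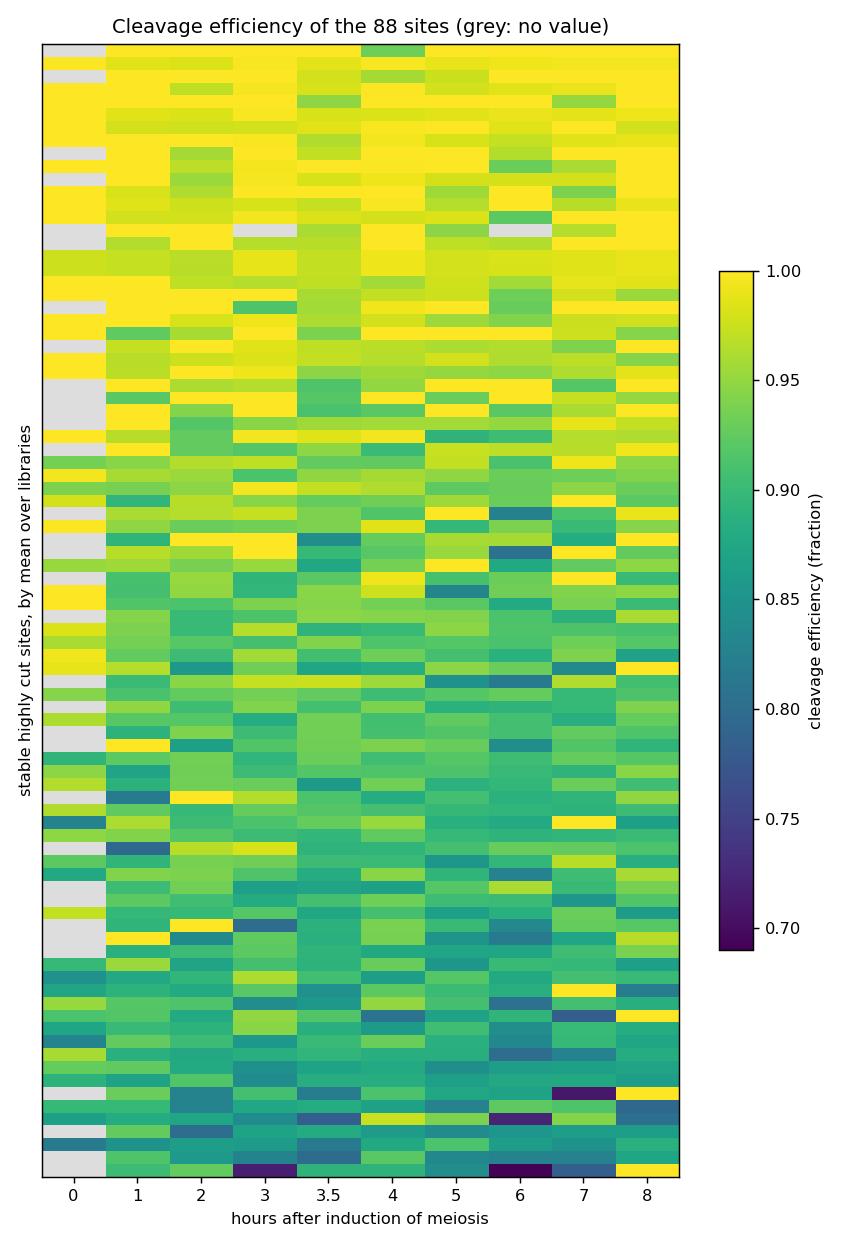
Cleavage efficiency (colour, fraction) of the 88 stable highly cut sites (down the page, by mean over libraries) at each hour after induction of meiosis (across), with grey where the table gives no value. Values below 0.85 are most frequent at 6 h, with 14 of 87 sites, and 33 sites have no value at 0 h.

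The smallest ranges over the libraries were those of ACO1 and CIT1, which encode enzymes of the tricarboxylic acid cycle. ACO1, the gene of aconitase, was cut by 0.998, 0.986, 0.983, 0.997, 0.988, 0.998, 0.989, 0.992, 0.995 and 0.995 from 0 to 8 h. CIT1, citrate synthase, lay between 0.982 at 3.5 h and 0.999 at 0 h, with a median of 0.987. Both ranged over less than 0.02 across all 10 libraries, including those the rule did not use. KGD2, a subunit of the alpha-ketoglutarate dehydrogenase of the same cycle, was lower and less even, from 0.861 at 8 h to 0.972 at 0 h with a median of 0.897. COR1, a core subunit of the respiratory bc1 complex, had a median of 0.891 and lay between 0.873 and 0.937. ADH2, the alcohol dehydrogenase that uses ethanol, was at 0.948 at 0 h and between 0.892 and 0.942 afterwards. PCK1, of gluconeogenesis, was lowest at 0 h, at 0.847, and highest at 3 h, at 0.961.

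Among genes of meiotic recombination, RED1 encodes a protein of the chromosome axis, SPO22 a protein of synapsis also called Zip4, and HFM1 a helicase of crossover formation. RED1 was cut by 0.948, 0.904, 0.941, 0.908, 0.939, 0.888, 0.891, 0.897 and 0.940 from 1 to 8 h. SPO22 at 1796 lay between 0.917 at 2 h and 1.00 at 1 h, with a median of 0.957. HFM1 at 3881 lay between 0.890 and 0.940. RMI1, of the complex that dissolves recombination intermediates, was far less even, with 0.709 at 7 h and 1.00 at 8 h, and its late mean of 0.855 rests on these values. HHO1, the linker histone, lay between 0.803 at 2 h and 0.926 at 1 h. None of these 5 had a value at 0 h.

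Genes of the methylation pathway itself were also among the stable sites. VIR1, a subunit of the methyltransferase complex, was at 1.00 in 6 of its 9 libraries and lowest at 4 h, with 0.958. PHO92, which binds methylated mRNA, lay between 0.953 at 2 h and 1.00 at 1 and 8 h, with a median of 0.981. At 3 and 6 h, which the rule did not use, VIR1 was at 1.00 and 1.00 and PHO92 at 0.996 and 0.980.

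Other named sites lay in genes of varied roles. RPT4 and RPN11, an ATPase and the deubiquitinase of the proteasome's regulatory particle, had medians of 0.994 and 0.949. TPM1, tropomyosin, lay between 0.978 and 1.00, and RHO1, the GTPase of cell wall integrity, between 0.963 and 1.00. GLC7, the catalytic subunit of protein phosphatase 1, lay between 0.909 and 0.960, and REG1, its partner in glucose repression, between 0.859 and 0.964. Of lipid synthesis, ERG6 had a median of 0.919, ERG2 0.897, HMG2 0.942 and FAS2 0.888, and FAS2 ranged from 0.820 at 8 h to 1.00 at 7 h. TPS1, of trehalose synthesis, had a median of 1.00, and the chaperone gene HSC82 one of 0.870. The 25S rRNA lay between 0.967 and 0.993.

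The least even sites met the rule although single libraries were low, since it used window means. CSC1, which encodes a membrane channel, was at 0.716 at 3 h and 0.692 at 6 h, neither of which the rule saw, and ended at 0.784 at 7 h and 1.00 at 8 h. PSK1, a PAS kinase, had 0.783 at 3.5 h and 0.974 at 4 h, then 0.722 at 6 h and 0.803 at 8 h. CTR2, a vacuolar copper transporter, was at 0.784 at 7 h and 1.00 at 8 h, the same listed values as those of CSC1 at these hours. Values shared between sites are counted at the end. All 7 values of the rule lay within 0.10 of each other at 65 of the 88 sites. Just inside the level were QRI1, TMA17 and RMI1, with lowest window means of 0.85, 0.854 and 0.855, and just outside it PIB1, YAT2 and VPS13, with 0.847, 0.838 and 0.833. Just inside the spread were ERV46 and COR1, with 0.0398 and 0.0394, and just outside it MCT1, SYG1 and TLD1, with 0.0403, 0.0405 and 0.0413.

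The libraries at 0, 3 and 6 h then showed how high the sites were where the rule had not looked. At 0 h 51 of the 55 sites with a value were at 0.85 or more, at 3 h 80 of 87 and at 6 h 73 of 87, and 71 of 87 were so at 3 and 6 h alike. Over all other judged sites the shares at this level were 75% at 0 h, 49.8% at 3 h and 39.0% at 6 h. This direction is in part fixed by the choice of sites with a high level. The other judged sites include the 87 sites that were as high but less even by the rule. Among these 87 the shares were near those of the stable sites, with 43 of 46 at 0 h, 75 of 84 at 3 h and 69 of 85 at 6 h. Over the 55 stable sites listed in all 10 libraries the medians at 0, 3 and 6 h were 0.972, 0.945 and 0.911. Over the 159 other judged sites with all 10 values they were 0.905, 0.851 and 0.822. The 6 h value was thus the lowest library median of the stable sites, as the plot of medians by library shows, and the 0 h value the highest. When libraries were shifted to the same median over sites, this order changed. The shift adds the same amount at every site of a library and takes no account of the upper limit of the fraction. Over all stable sites with a value (55, 87 and 87), the shifted medians at 0, 3 and 6 h were 0.928, 0.947 and 0.939, and the unshifted ones 0.972, 0.945 and 0.912.

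**Figure D2:**
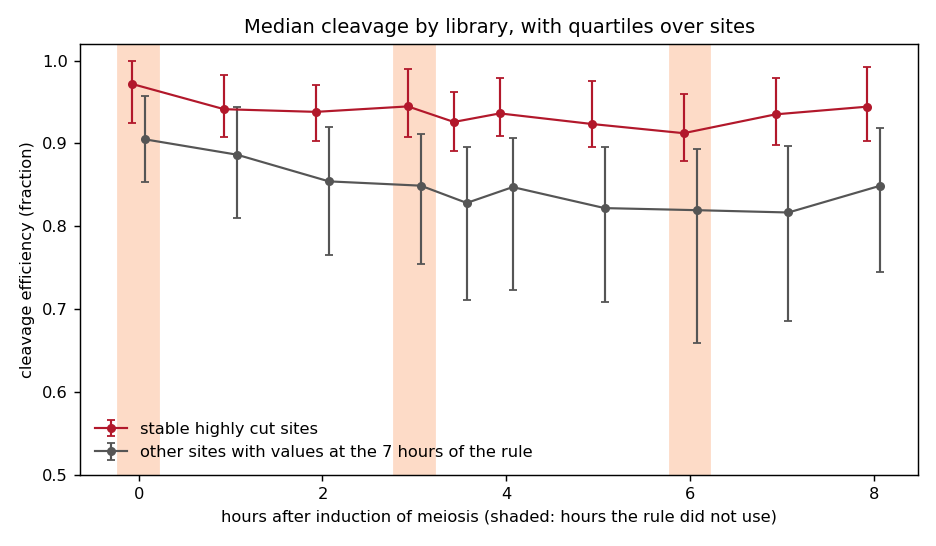
Median cleavage efficiency (fraction, with the quartiles over sites as bars) at each hour after induction of meiosis, for the 88 stable highly cut sites and the 307 other judged sites, with the hours the rule did not use shaded. The median of the stable sites is 0.972 at 0 h and 0.912 at 6 h, and that of the other sites 0.905 at 0 h and 0.819 at 6 h.

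Site by site, 41 of the 55 were lower at 6 h than at 0 h, with a median difference of -0.0432, and 133 of 159 other judged sites were, with a median of -0.0851. Between 6 h and 3 h, which leaves out the sparse 0 h library, 60 of 87 stable sites were lower at 6 h, with a median difference of -0.0175, against 198 of 301 others with -0.0431. The scatter of these hours places the stable sites in the upper corner, mostly below the line of equal values.

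**Figure D3:**
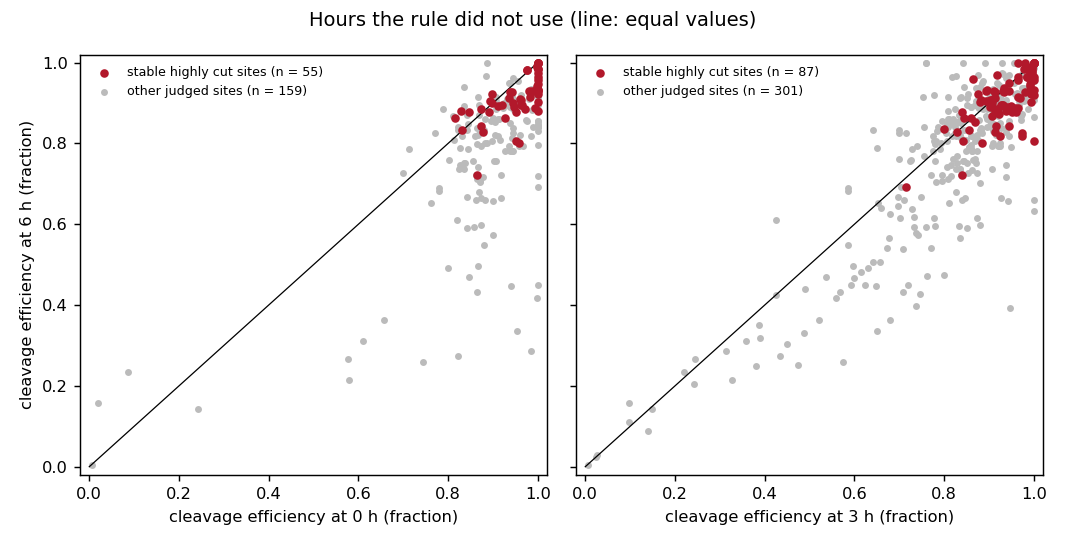
Cleavage efficiency at 6 h (vertical, fraction) against that at 0 h (left) and 3 h (right) for each site, with the stable highly cut sites in red and the other judged sites in grey. Of the stable sites, 41 of 55 lie below the line of equal values at left and 60 of 87 at right.

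A straight line in the hour was fitted over the 0, 3 and 6 h libraries with limma, for the 273 sites of the whole table that had all 3 values. These hours are evenly spaced, so the slope restates the difference between 6 h and 0 h. The 3 h value enters only the error. Of the 55 stable sites tested 0 passed at an adjusted p of 0.05, and 0 of all 273 passed (0% fell and 0% rose). At an unadjusted p under 0.05, 8 of the 55 (14.5%) had a falling slope and 0 a rising one, against 17.9% of all tested sites falling and 0.733% rising. Slopes were below 0 for 41 of the 55 (74.5%), the sites that were lower at 6 h than at 0 h. MGM101, PTA1 and TPS1 were at 1.00 at all 3 hours and had slopes of 0. Over all sites with values at 0 and 6 h, 227 of 283 (80.2%) were lower at 6 h. The median slope was -0.00720 per hour over the stable sites and -0.0112 over all tested sites, with median standard errors of 0.00465 and 0.00995. On the logit scale these median slopes were -0.1177 and -0.1414, with median standard errors of 0.1031 and 0.1004. On the arcsine scale they were -0.0177 and -0.0216, with 0.0148 and 0.0164. The much smaller error of the stable sites was thus particular to the fraction scale. The distribution of slopes on the fraction scale shows the stable sites within a narrow band just below 0, from -0.0263 to 0.00846 per hour. With each library shifted to the same median, the median slope of the stable sites was 0.00454 and that of all tested sites 0.000517. The shift adds the same amount at every site of a library, however close the site is to full cutting. Sites at 1.00 at all 3 hours, such as that of MGM101, gain a rising slope from the shift itself. A falling slope at an unadjusted p under 0.05 was then found at 0 stable sites and a rising slope at 9, and over all sites these counts were 21 and 22 in place of 49 and 2. The course has no replicate, so p-values rest on the scatter of single libraries around the line. With only 3 values a site, that scatter is hardly known for the site itself. The error used here comes in large part from a variance that limma took over other sites of like mean.

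**Figure D4:**
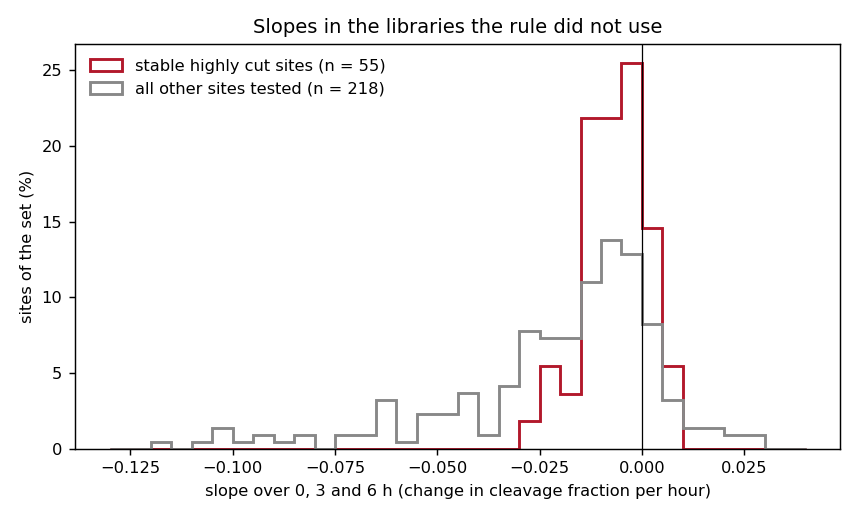
Percentage of sites (vertical) by slope of cleavage over 0, 3 and 6 h (horizontal, change in fraction per hour), for the 55 stable highly cut sites and the 218 other sites tested. The stable sites run from -0.0263 to 0.00846 per hour, and 41 of them lie below 0.

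The 8 sites with a falling slope at an unadjusted p under 0.05 were in PGA2, PIL1, GRX6, NCE103, STV1, HAB1, TMA17 and YKT6, and were chosen for naming after their values were seen. TMA17, of a protein that helps assemble the proteasome, had values of 0.959, 0.885 and 0.801 at 0, 3 and 6 h. Its slope of -0.0263 per hour was the steepest of the 55, with a 95% interval from -0.0516 to -0.00107 and an adjusted p of 0.259 (limma). PIL1, a core component of the eisosome of the plasma membrane, was at 0.993, 0.958 and 0.888 at these hours, and PGA2 at 1.00, 0.939 and 0.880. The smallest adjusted p of any site, stable or not, was 0.241 (limma). Site 864 of NCE103, not a stable site, had this adjusted p with values of 0.941, 0.649 and 0.448 at 0, 3 and 6 h. A site that did not pass is thus not shown to be level. The interval of the slope held 0 at 47 of the 55 stable sites.

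The sites that were as high but less even serve as the nearest comparison, with all 3 window means at 0.85 or more and differing by 0.04 or more. At 3 h, 61 of 87 stable sites (70.1%) lay within 0.04 of the mean of the 2 and 3.5 h libraries, against 57 of 84 (67.9%) of the high but less even sites. At 6 h, 55 of 87 (63.2%) lay within 0.04 of the mean of 5 and 7 h, against 47 of 85 (55.3%). The median difference between 6 h and 0 h was -0.0432 in the 55 stable sites and -0.0467 in 45 of the less even ones. This difference was within 0.04 at 25 of the 55 (45.5%) and at 21 of the 45 (46.7%). Other values lay farther apart: 27 of 87 stable sites (31.0%) and 43 of 84 less even sites (51.2%) were below the surrounding libraries at 3 h, and 58 of 87 (66.7%) and 45 of 85 (52.9%) at 6 h. A falling slope over 0, 3 and 6 h at an unadjusted p under 0.05 was found at 8 of 55 stable sites (14.5%) and 12 of 45 less even ones (26.7%), with limma. The libraries around 3 and 6 h, at 2, 3.5, 5 and 7 h, were used by the rule, so departures from them are only in part independent of it. No test of the difference between these sets was made.

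Over the whole course, which shares 7 of its 10 libraries with the rule, 0 of 87 stable sites passed limma's test for a trend, and 1 had a falling slope at an unadjusted p under 0.05. Over all 591 sites with at least 8 values 18 fell (3.05%) and 0 rose, while 16.2% had a falling and 1.35% a rising trend at an unadjusted p under 0.05. The rule itself limits the slope of its sites, so nothing is read from this contrast. Leaving out the 0 h library gave 5 falling sites in place of 18, leaving out 6 h gave 2, 7 h gave 8 and 8 h gave 50, and leaving out any 1 of the 1, 2, 3, 3.5, 4 and 5 h libraries gave 0, and the count of stable sites was 0 in each of these fits.

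Other sites of the same genes often behaved differently. Further sites were listed in 21 of the genes, 24 sites in all, of which 13 could be judged by the rule. At 22 of the 24 the median difference over shared libraries put the stable site higher, with a median of 0.177 over the pairs. Of the 17 pairs with at least 8 shared libraries, the stable site was higher in every one of them in 8. Since the stable sites were chosen for high values, this direction is in part fixed by the choice.

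The closest pairs lay 6 and 7 bases apart. In NCE103, the gene of carbonic anhydrase, the stable site at 870 lies 54 bases after the stop codon in R64 and its neighbour at 864 in the same stretch. At 0, 3 and 6 h the stable site had values of 0.983, 0.965 and 0.914, against 0.941, 0.649 and 0.448 at site 864. At 8 h the values were 0.909 and 0.744. The stable site was higher in all 10 libraries, by 0.344 at the median. As the printed windows show, the stable site reads TTACA and the neighbour AGACA followed by a T 2 bases on.

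In HFM1 the stable site at 3881 and its neighbour at 3888 lie 16 and 23 bases after the stop codon. From 3.5 to 7 h the stable site had the values 0.934, 0.908, 0.916, 0.908 and 0.925, against 0.590, 0.634, 0.454, 0.449 and 0.375 at site 3888. The neighbour had no value at other hours, and the values of the sites do not overlap. Here the stable site reads GAACA and the neighbour AGACA, again with a T 2 bases on. How reads between such close sites were assigned is not stated in the labels.

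**Figure D5:**
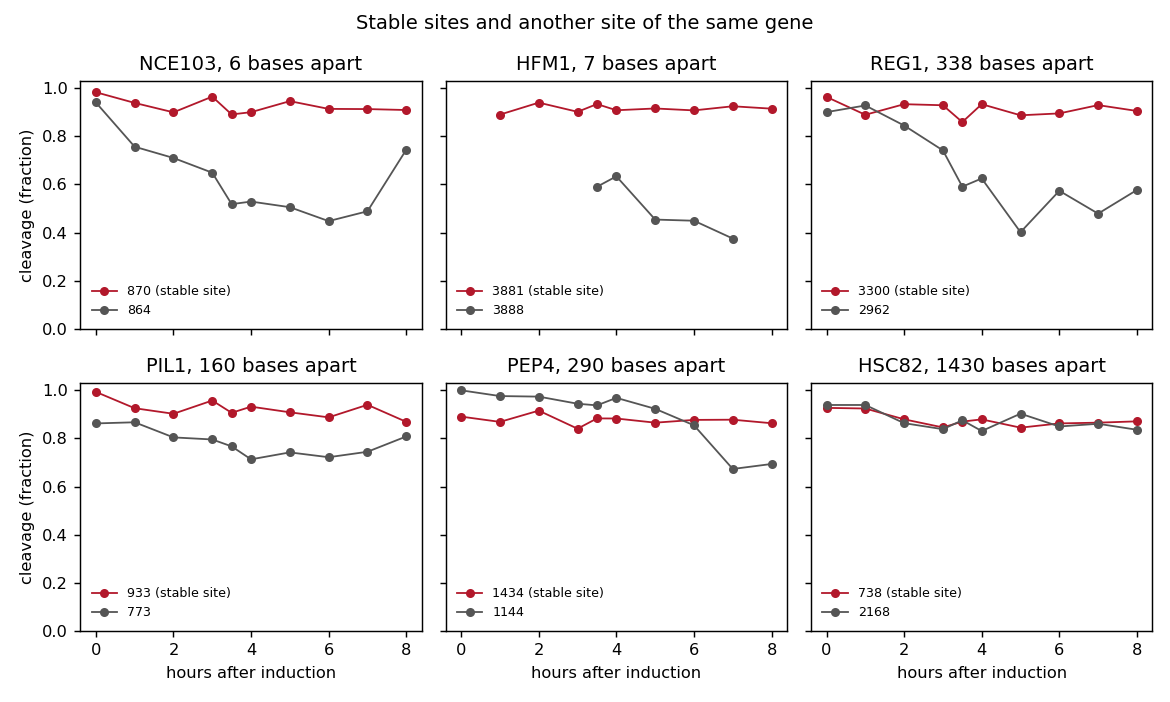
Cleavage efficiency (vertical, fraction) by hour after induction of meiosis (horizontal) at a stable highly cut site (red) and at another listed site of the same gene (grey), for 6 genes, with the distance between the sites above each panel. In NCE103 the stable site is at 0.914 at 6 h and its neighbour at 0.448, while in HSC82 the values are 0.862 and 0.85.

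Pairs farther apart split in the same way in some genes and not in others. In REG1 the site at 3300 was at 0.895 at 6 h and 0.906 at 8 h, against 0.574 and 0.577 at site 2962. In PIL1, site 933 was above site 773 in all 10 libraries, by 0.151 at the median. In HMG2, the HMG-CoA reductase gene, site 1971 was at 0.912 at 6 h, against 0.626 at site 2445 and 0.641 at site 491. PEP4, which encodes the vacuolar proteinase A, went the other way until 5 h: site 1434 was at 0.891 at 0 h and 0.865 at 5 h, against 1.00 and 0.923 at site 1144. At 7 and 8 h site 1434 was at 0.878 and 0.863, against 0.673 and 0.694. In HSC82 and GRX6 the median difference between the sites was 0.00598 and 0.00477. In PMT2, of protein mannosylation, site 2051 was below site 1516 in all 7 shared libraries. Of the 23 neighbouring sites that could be placed, 19 had an A or G followed by GACA.

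A value at 0 h was missing at 33 of the 88 stable sites and present at 55 (62.5%), against 160 of 307 other judged sites (52.1%) and 299 of 1184 in the table (25.3%). All 5 sites named above in recombination and chromatin lacked one, as did VIR1 and PHO92, and COR1, while CIT1, ACO1, ADH2, PCK1 and KGD2 had one. Why a value is missing is not stated in the labels.

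The stable sites were spread over functions. Of 20 lists of genes, 15 held a site that the rule could judge. Over the whole table the rule kept 22.3% of the judged sites. It kept 3 of 8 judged sites of early meiotic recombination and synapsis, 4 of 15 of lipid, inositol and sterol synthesis, 3 of 11 of acetate use and gluconeogenesis, and 3 of 9 of respiration. It kept 2 of 13 sites of the proteasome and ubiquitin, 2 of 6 of heat shock and stress, 2 of 6 of secretion and glycosylation, and 1 of 8 of glycolysis and fermentation. The only judged sites of the methyltransferase complex and reader list, VIR1 and PHO92, were both kept. It also kept 1 of 3 sites of chromatin and histones and 1 of 3 of autophagy and vacuolar proteases. In regulators of meiotic entry, translation factors and mitotic growth it kept 0 of 2, 0 of 1 and 0 of 2. The lists of middle sporulation genes, cohesin and kinetochore, ribosomal proteins, ribosome biogenesis and haploid or mating genes, the last a check for cells that had not become diploid, held no judged site. At 6 h, the median of the stable recombination sites was 0.908, against 0.804 over all 8 judged sites of that list. These 3 sites are among the 8 and were chosen for high values, so this direction is in part fixed by the choice. With so few sites a list these shares do not set any list apart, and 63 of the 88 sites were in no list.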

How the data were processed

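The authors deposited cleavage efficiencies, a fraction per site and library. The submitters' processing notes name STAR 2.5.3a and bedtools 2.26.0. Not given in the sources used here are the genome build, how reads were counted, the coverage behind a value, the choice of sites and the rule for missing values. The hour in a column's name gave its sample, and 4 columns of values were used in no step. Of 1198 rows, 14 repeats of a position under another gene were removed. The values were used without scaling, since depth is unknown. Gene names and sequences came from RefSeq R64, and the offset of positions was found by scanning for ACA. The members and gene lists were chosen with earlier results of these data known. Trends came from limma 3.58.1 (R 4.3.3) with a mean-dependent prior variance, fitted over every site with values at 0, 3 and 6 h or, for the whole course, in at least 8 libraries. P-values were adjusted by Benjamini-Hochberg. The fit was tested on simulated data that had no upper limit and falling slopes steeper than that of any stable site. That test does not show how well slopes as small as theirs are found. Counts and medians were made in Python 3.11.15. Sites were named as those with the smallest and largest ranges, the highest and lowest means, up to 2 per list, those with another site in their gene, and those nearest the thresholds. Others are named after their values were seen. Results for some genes are not reported here.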

Additional observations from a re-analysis of the deposited data

How the results depend on the processing

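The number of stable highly cut sites was 88, and 61 with a level of 0.90, 97 with 0.80, 65 with a spread under 0.03 and 111 with 0.05. It was 90 with window medians, 91 with all 7 values within 0.10, 86 with libraries shifted to the same median, of which 58 were among the 88, and 65 to 92 when each of the 7 libraries was left out in turn. In every one of these 7 settings 33 of the 88 sites met the rule. Without sites at exactly 1 it was 47. Over 0, 3 and 6 h the count of stable sites that passed was 0 on the logit and arcsine scales, with 1 prior variance, with shifted libraries and over sites with a mean of 0.5 or more. With shifted libraries 1 site of the whole table rose. The 8 stable sites with a falling slope at an unadjusted p were 4 on the logit scale, 11 on the arcsine scale, 2 with 1 prior variance and 0 with shifted libraries; the cause was not tested. The whole-course count of 18 falling sites was 0 with shifted libraries, 8 over sites with all 10 values, 0 over sites with at least 4, and 0 to 50 when each library was left out. No paired analysis was possible because the groups with replicate numbers, the 8 h controls, could not be tied to columns, so the planned comparison of the ime4 deletion with wild type, and its alternatives, were not run. Unknown depth limits every value.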

Other observations

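Values of exactly 1 made up 120 of the 845 values of the stable sites (14.2%) and 159 of the 2915 values of the other judged sites (5.45%). By hour from 0 to 8 h, the 88 stable sites held 15, 19, 14, 11, 3, 7, 11, 8, 12 and 20 of them. The 87 sites that were as high but less even held 12, 19, 12, 5, 7, 6, 3, 5, 11 and 21, so such values were not particular to the stable sites. At 46 of the 88 stable sites at least 1 library was at exactly 1. GPN2 and MGM101 were at 1 in 8 libraries each, and VIR1, TPS1 and VBA4 in 6 each. The reads behind these values are unknown.

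Below 1, a value was often shared to 12 decimals with another site of the same library. Over all sites 4610 of 7694 such values (59.9%) occurred at more than 1 site, and among the stable sites 228 of 725 (31.4%) did. The cause of these repeats was not tested.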
